A study of Homo sapiens with 8 samples.

Results

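The 34 genes described here encode the core machinery that builds autophagosomes and the receptors that bring cargo to them. A gene was included when at least 1 probe set on the array carried its symbol as the only gene symbol in the platform annotation. All 34 were found among the 18132 genes with such a probe set, and 33 of them were among the 11383 genes tested. Their expression was compared in Huh7.5.1 cells treated with CU27 against DMSO, and between Huh7.5.1 and Hep3B cells in DMSO.

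Macroautophagy encloses cytoplasm in a double membrane and delivers it to lysosomes for digestion. The ULK1 kinase complex starts the process, a class III PI3-kinase complex containing beclin 1 marks the site with a lipid, and a pair of ubiquitin-like conjugation systems attaches proteins of the ATG8 family to the growing membrane. Receptors such as p62 bind both cargo and ATG8 proteins, and are themselves degraded in the process. In liver cells autophagy turns over organelles, protein aggregates and lipid, and in mice p62 accumulates in the liver when it is blocked. The transcript levels given here do not measure the flux through the pathway.

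Both lines are established human hepatocellular carcinoma lines. Huh7.5.1 is a derivative of Huh-7 cells used for hepatitis C virus infection, and Hep3B (Hep3b in the labels) carries integrated hepatitis B virus DNA. The study asked which transcripts CU27, a compound known here only by its code name, alters in such cells. The groups were Huh7.5.1 kept for 48 h in 10 μM CU27, Huh7.5.1 kept for 48 h in DMSO, and Hep3B kept for 48 h in DMSO, with 2 biological replicates each. The Huh7.5.1 replicates are numbered 1 and 2, and the Hep3B replicates 2 and 3. Per the labels, each sample's RNA was amplified and labelled from the 3′ end and hybridised to its own Affymetrix array. A further 2 columns labelled Hep3B CU27 were left out, because each could be computed exactly from the DMSO columns of that line at all 49395 probe sets (tolerance 1e-06).

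Values are the authors' deposited signals, taken to be on a log2 scale, and a level below means such a signal. Each gene is read from its probe set with the highest mean. Genes entered the test if the mean of at least 1 group reached log2 6.11, the median of all probe set values, called the floor below. Changes are differences of group means on the log2 scale, with limma standard errors (n = 2 arrays per group) and p-values adjusted by the Benjamini-Hochberg method over all 11383 genes. Rose and fell are used for members with an adjusted p under 0.05. Levels of different genes come from different probes and are not set against each other.

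Correlations between replicate arrays over probe sets lay between 0.991 and 0.994. All 10 hepatocyte markers on the array were above the floor in every group, among them ALB and AFP. With CU27, 5 of these 10 fell (APOB by 1.28, TTR by 0.94, APOH by 0.67, SERPINA1 by 0.66 and APOA2 by 0.30) and the other 5 did not pass the test. The summed linear signal of the 10 was 87590 and 69836 in Huh7.5.1 CU27, against 101443 and 105048 in Huh7.5.1 DMSO, and its part in the results below was not tested. PTPRC and CD3E, from the leukocyte list, were below the floor in every group, as were PECAM1, CDH5, COL1A1 and DCN on group means. Of the 4 endothelial markers on the array, 0 reached the floor in Huh7.5.1 CU27, 1 in Huh7.5.1 DMSO (KDR) and 0 in Hep3B DMSO. Of the 6 fibroblast and stellate markers, 1 reached it in Huh7.5.1 CU27, 1 in Huh7.5.1 DMSO and 2 in Hep3B DMSO. PDGFRB was above the floor in every group, and LUM in Hep3B DMSO. Of the 5 leukocyte markers on the array, 2 reached the floor in Huh7.5.1 CU27, 2 in Huh7.5.1 DMSO and 3 in Hep3B DMSO. Their summed linear signal was 3315 and 2252 in Huh7.5.1 CU27, against 3926 and 3829 in Huh7.5.1 DMSO, and it was 554 and 437 in Hep3B DMSO. Within that list CD68, a lysosomal membrane glycoprotein, rose to 8.86 and 9.34 with CU27, against 7.04 and 6.67 in DMSO (2.25 ± 0.20, adjusted p = 0.000394), and its part in the results below was not tested. In bulk samples a change in the make-up of a culture and a change in RNA per cell cannot be told apart. Control probe sets at the 3′ and 5′ ends of ACTB, whose gap widens as RNA degrades, lay 0.98 and 1.21 log2 units apart on the CU27 arrays, 0.94 and 1.06 apart on the Huh7.5.1 DMSO arrays and 2.28 and 1.60 apart on the Hep3B arrays.

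Promoter sequences are shown for 5 members, to set the members that moved beside the short motifs through which autophagy genes are known to be regulated. They come from RefSeq (GRCh38.p14) and run from 250 bases before to 50 bases after the start listed first for each gene. Such a window was searched for 31 of the 34 members. ATG4D, UVRAG and RB1CC1 were not among them. Both strands were searched for CACGTG (the E-box at the core of the element bound by TFEB), TGATGCA (the core of the C/EBP-ATF element bound by ATF4) and GTAAACA (the FOXO element). Matches are in capitals, and the matches found did not overlap one another. ATG14, which rose, and ATG3, which did not pass the test with CU27, were the members with an E-box, and CALCOCO2, which fell, was the member with a FOXO element. OPTN, with the largest rise, and SQSTM1, which fell, held none of the 3 motifs in this window.
ATG14 (chr14:55411781-55412080, minus strand): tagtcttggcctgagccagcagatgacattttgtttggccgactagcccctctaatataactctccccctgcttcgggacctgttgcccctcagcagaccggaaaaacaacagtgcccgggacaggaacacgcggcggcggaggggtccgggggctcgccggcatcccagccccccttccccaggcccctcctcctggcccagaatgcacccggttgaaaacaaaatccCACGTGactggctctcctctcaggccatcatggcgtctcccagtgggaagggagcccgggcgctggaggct
ATG3 (chr3:112561913-112562212, minus strand): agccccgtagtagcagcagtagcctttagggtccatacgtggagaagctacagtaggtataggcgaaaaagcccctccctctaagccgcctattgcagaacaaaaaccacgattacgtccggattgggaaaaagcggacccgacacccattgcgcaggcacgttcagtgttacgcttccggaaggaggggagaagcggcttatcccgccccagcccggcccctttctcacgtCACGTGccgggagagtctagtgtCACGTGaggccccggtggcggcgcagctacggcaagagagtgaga
CALCOCO2 (chr17:48830785-48831084, plus strand): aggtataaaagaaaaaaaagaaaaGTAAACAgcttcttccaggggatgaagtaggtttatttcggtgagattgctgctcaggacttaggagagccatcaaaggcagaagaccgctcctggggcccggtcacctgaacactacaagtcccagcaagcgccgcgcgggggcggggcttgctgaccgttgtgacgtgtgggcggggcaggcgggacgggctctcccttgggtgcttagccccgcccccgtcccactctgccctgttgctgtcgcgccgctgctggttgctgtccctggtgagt
OPTN (chr10:13099832-13100131, plus strand): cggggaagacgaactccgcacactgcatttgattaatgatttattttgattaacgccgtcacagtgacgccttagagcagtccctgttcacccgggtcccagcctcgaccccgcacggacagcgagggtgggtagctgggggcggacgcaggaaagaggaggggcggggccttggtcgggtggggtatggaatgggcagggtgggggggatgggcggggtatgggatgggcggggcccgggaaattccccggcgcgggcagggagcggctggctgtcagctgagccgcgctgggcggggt
SQSTM1 (chr5:179806143-179806442, plus strand): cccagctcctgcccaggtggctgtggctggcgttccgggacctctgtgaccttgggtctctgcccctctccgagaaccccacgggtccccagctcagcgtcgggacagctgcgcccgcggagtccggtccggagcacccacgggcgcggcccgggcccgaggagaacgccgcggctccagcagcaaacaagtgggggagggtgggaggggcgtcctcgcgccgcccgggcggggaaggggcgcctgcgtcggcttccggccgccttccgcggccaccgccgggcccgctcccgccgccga

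The E-box of ATG14 began 21 bases before the start, and those of ATG3 began 18 bases before and 5 bases after it. The FOXO element of CALCOCO2 began 226 bases before the start. An E-box was found in 2 of the 31 member windows (6.45%), against 7.43% of the 27305 promoters of all genes. The C/EBP-ATF core was found in 0 of 31 member windows, against 2.69% of all promoters, and the FOXO element in 1 of 31 (3.23%), against 3.41%. A match describes the letters in the window and shows no binding.

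With CU27, 9 of the 33 tested members rose, 6 fell and 18 did not pass the test. The largest rise was that of OPTN, the receptor optineurin, at 1.14 ± 0.13, and GABARAPL1, ATG14, ATG4A, ATG16L1, WIPI1, NBR1, GABARAPL2 and ATG4D also rose. The members that fell were ATG4C, ATG2B, ATG10, ATG7, CALCOCO2 and SQSTM1. The share of members called was 45.5%, against 24.7% of all genes tested. When all probe sets of a gene were averaged it was 25%, against 24.8% of all genes, so the share was then close to that of all genes. With this averaging, 6 of 32 tested members rose and 2 fell, against 1195 and 1238 of 9815 genes. With 1 probe set per gene, as in all that follows here, rises were 27.3% of members against 12.6% of all genes. Falls were then 18.2% against 12.1%. The median change of the members was 0.36, and that of all tested genes was 0.02. Of 33 members, 26 (78.8%) had no overlap between CU27 and DMSO arrays, against 63.8% of all genes tested. CU27 arrays were the higher ones at 19 members (57.6%), against 32.9% of all genes, and the lower ones at 7 members (21.2%), against 31% of all genes.

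The 2 CU27 arrays were not equally far from DMSO. Replicate 2 was above replicate 1 at 28 of 33 members, against 59.4% of all tested genes, and farther from the DMSO mean at 24 of 33 members, against 60.4% of all tested genes. OPTN and ATG14 were the members that stayed past the test without each of the 6 arrays in turn. Leaving out CU27 replicate 2 left 5 members past the test, all higher, or 15.2% of members against 13.4% of all genes. Leaving out DMSO replicate 2 left 2 higher and 1 lower, or 9.09% of members against 7.89% of all genes. Taken over both directions together, the shares of members and of all genes were close to each other without either array. Such shares do not show direction. The median change of members was 0.20 without CU27 replicate 2, against -0.01 for all genes. Without DMSO replicate 2 it was 0.31, against 0.02 for all genes.

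**Figure D1:**
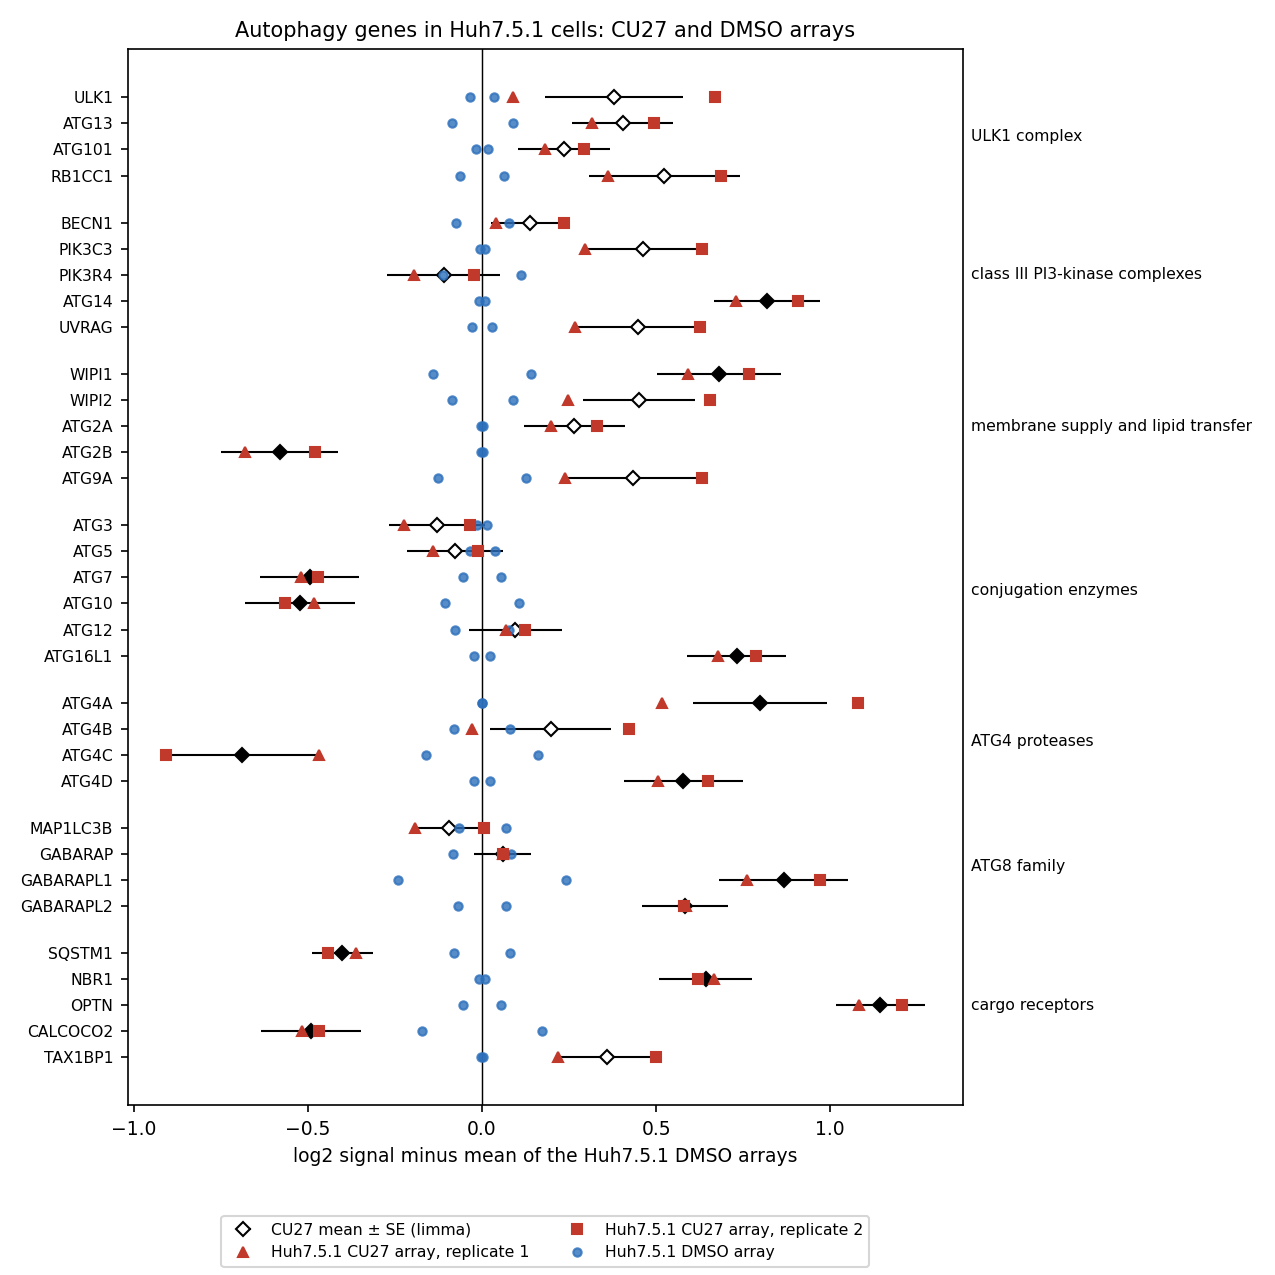
Log2 signal of each tested member on the Huh7.5.1 CU27 arrays (red triangle, replicate 1; red square, replicate 2) and DMSO arrays (blue circles), minus the mean of the DMSO arrays. Diamonds are CU27 means ± limma SE, filled where the adjusted p was under 0.05; OPTN lies farthest to the right at 1.14, and ATG4C farthest to the left at -0.69.

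The ULK1 complex had 0 of 4 tested members past the limma test and 2 of 4 with an unadjusted p under 0.05, against 38% of all genes tested at that unadjusted threshold. Its median change was 0.39. All 4 changes were positive, from 0.24 for ATG101 to 0.52 for RB1CC1, and adjusted p ranged from 0.0725 for ATG13 to 0.229 for ATG101. ULK1, the kinase itself, had 7.17 and 7.75 on the CU27 arrays against 7.05 and 7.12 on the DMSO arrays, a difference of 0.38 ± 0.20 (adjusted p = 0.199). CU27 replicate 2 carried most of it, since the difference was 0.67 without CU27 replicate 1 (adjusted p = 0.029) and 0.09 without CU27 replicate 2 (adjusted p = 0.785). ULK2, the related kinase, was below the floor in every group and was not tested, with levels of 4.31 and 4.20 in CU27 cells, 4.21 and 4.35 in Huh7.5.1 DMSO cells, and 3.40 and 3.54 in Hep3B cells.

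Among the class III PI3-kinase genes ATG14 rose, and BECN1, PIK3C3, PIK3R4 and UVRAG did not pass the test. ATG14, which directs the kinase complex to sites of autophagosome formation, had 9.83 and 10.00 on the CU27 arrays against 9.09 and 9.11 on the DMSO arrays. The groups did not overlap, and the rise of 0.82 ± 0.15 was 1.76-fold (limma adjusted p = 0.0065). All 3 of its tested probe sets rose, by 0.63 to 0.82. UVRAG, which replaces ATG14 in a complex acting in endosomal traffic, had 6.98 and 7.34 with CU27 against 6.74 and 6.68 in DMSO (0.45 ± 0.17, adjusted p = 0.0925). PIK3C3, the catalytic subunit, differed by 0.46 ± 0.16 (adjusted p = 0.0631), with both CU27 arrays above both DMSO arrays. BECN1, the scaffold, and PIK3R4, the regulatory kinase-like subunit, differed by 0.14 and -0.11 (adjusted p = 0.419 and 0.680), and their groups overlapped.

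Of the genes for membrane supply and lipid transfer, WIPI1 rose and ATG2B fell. WIPI1, a reader of the lipid made by the class III kinase, had 9.83 and 10.00 with CU27 against 9.09 and 9.38 in DMSO. Both CU27 arrays were above both DMSO arrays, and the rise was 0.68 ± 0.18, or 1.60-fold (adjusted p = 0.0245). Its other probe set rose by 0.65. WIPI2, the relative that recruits ATG16L1, differed by 0.45 ± 0.16 (adjusted p = 0.0711), but its 3 probe sets ran from -0.17 to 0.67, and the highest of these passed the test over probe sets.

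ATG2B, a lipid transfer protein, had 7.94 and 8.14 with CU27 against 8.61 and 8.62 in DMSO, a fall of 0.58 ± 0.17 without overlap (adjusted p = 0.0349). Its other tested probe set pointed the other way, at 6.84 and 7.29 with CU27 against 6.62 and 6.51 in DMSO, so the direction of ATG2B depends on the probe set (-0.58 or 0.50). ATG2A, its paralog, and ATG9A, the membrane protein of the seed vesicles, differed by 0.27 and 0.43 (adjusted p = 0.220 and 0.151). A further 5 probe sets named for both ABCB6 and ATG9A were not used. WIPI1 lost the call without CU27 replicate 2 (adjusted p = 0.116), DMSO replicate 1 (0.144) or DMSO replicate 2 (0.0621). ATG2B lost it without any 1 of the 4 Huh7.5.1 arrays (adjusted p from 0.0618 to 0.155).

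Of the 6 conjugation enzymes 1 rose and 2 fell, with a median change of -0.10. ATG16L1, the scaffold that places the ATG12-ATG5 conjugate on the membrane, had 8.61 and 8.72 with CU27 against 7.91 and 7.95 in DMSO. Both CU27 arrays were above both DMSO arrays by more than the spread within either group, and the rise was 0.73 ± 0.14, or 1.66-fold (adjusted p = 0.00771). Its other probe set rose by 0.59.

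ATG7, the E1-like enzyme that activates both ATG12 and the ATG8 proteins, fell to 7.34 and 7.39 with CU27, against 7.81 and 7.92 in DMSO. The groups did not overlap, and the fall was 0.50 ± 0.14 (adjusted p = 0.0339). Its 3 probe sets gave -0.53 to -0.50. ATG10, the E2-like enzyme for ATG12, had 5.82 and 5.74 with CU27 against 6.19 and 6.41 in DMSO (-0.52 ± 0.16, adjusted p = 0.0413). Its CU27 mean lay below the floor, so the DMSO level was at least 1.14-fold higher when set against the floor, and it rests on 1 tested probe set.

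ATG5, ATG12 and ATG3, the acceptor, the conjugated protein and the E2-like enzyme for ATG8 proteins, differed by -0.08, 0.10 and -0.13 (adjusted p from 0.547 to 0.736). Groups overlapped at ATG5 and ATG12, and both CU27 arrays of ATG3 were below both DMSO arrays. ATG16L1 lost the call without DMSO replicate 2 (adjusted p = 0.0556). ATG7 lost it without any 1 of the 4 Huh7.5.1 arrays or Hep3B replicate 3 (adjusted p from 0.0512 to 0.198), and ATG10 without any 1 of the 6 arrays (from 0.0593 to 0.248).

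Of the 4 ATG4 proteases, which trim ATG8 proteins before conjugation and release them from membranes, 2 rose and 1 fell. ATG4A rose to 8.10 and 8.67 with CU27, against 7.59 and 7.59 in DMSO (0.80 ± 0.19, adjusted p = 0.0176). The 2 CU27 arrays differed from each other by more than the DMSO arrays did, and the other probe set of ATG4A differed by 0.10 and did not pass the test. ATG4D rose to 7.86 and 8.00 with CU27, against 7.38 and 7.33 in DMSO (0.58 ± 0.17, adjusted p = 0.0381), and its 3 probe sets gave 0.23 to 0.58, of which only the highest passed the test over probe sets.

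ATG4C fell to 7.42 and 6.98 with CU27, against 8.05 and 7.73 in DMSO (-0.69 ± 0.22, adjusted p = 0.0476). Its groups did not overlap, and its other probe set gave -0.12. ATG4B, the protease with the broadest activity on ATG8 proteins, differed by 0.20 (adjusted p = 0.457), and its groups overlapped. ATG4A lost the call without CU27 replicate 2 (adjusted p = 0.079), DMSO replicate 1 (0.0767) or DMSO replicate 2 (0.0964). ATG4D lost it without any 1 of the 4 Huh7.5.1 arrays (0.0587 to 0.176), and ATG4C without any 1 array other than CU27 replicate 1 (0.055 to 0.239). With the probe sets of each gene averaged, ATG4A, ATG4D and ATG4C each lost the call (adjusted p = 0.0742, 0.0605 and 0.124).

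In the ATG8 family, the proteins that are conjugated to the membrane and bind receptors, GABARAPL1 and GABARAPL2 rose. GABARAPL1 had 10.15 and 10.36 with CU27 against 9.63 and 9.15 in DMSO, and the rise was 0.87 ± 0.19, or 1.82-fold (adjusted p = 0.0111). Its DMSO arrays differed from each other by more than its CU27 arrays did, and both were below both CU27 arrays. The other 2 tested probe sets of GABARAPL1 gave 0.71 and 0.73 and did not pass the test over probe sets (adjusted p = 0.0983 and 0.071). GABARAPL2 had 11.50 on both CU27 arrays against 10.99 and 10.85 in DMSO (0.58 ± 0.12, adjusted p = 0.0111). All 4 of its probe sets rose, by 0.55 to 0.59. GABARAP itself had 12.51 on both CU27 arrays against 12.54 and 12.37 in DMSO (0.06 ± 0.08, adjusted p = 0.655).

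MAP1LC3B, which encodes LC3B, the protein most used to count autophagosomes, gave different answers by probe set. The probe set with the highest mean had 12.06 and 12.26 with CU27 against 12.18 and 12.32 in DMSO (-0.09 ± 0.11, adjusted p = 0.582). Another had 12.28 and 12.66 with CU27 against 11.93 and 11.97 in DMSO, and the next had 11.81 and 11.98 with CU27 against 11.30 and 11.33 in DMSO. Those probe sets rose by 0.52 and 0.57 with adjusted p over probe sets of 0.0243 and 0.00876. The remaining probe set had a change of -0.24 and did not pass the test, so the direction of MAP1LC3B depends on the probe set. GABARAPL1 lost the call without CU27 replicate 2 (adjusted p = 0.0664) or DMSO replicate 2 (0.0936), with all its probe sets averaged (0.49, adjusted p = 0.0925) and without probe sets marked as matching several transcripts (suffix _x_at or _s_at) (adjusted p = 0.0929), and GABARAPL2 without DMSO replicate 2 (0.091).

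Cargo receptors held both the largest rise and a pair of falls. OPTN, which brings ubiquitin-tagged cargo such as damaged mitochondria and bacteria to ATG8 proteins, had 11.47 and 11.59 on the CU27 arrays against 10.33 and 10.44 on the DMSO arrays. The gap between the groups was several times the spread within either, and the rise of 1.14 ± 0.13 was 2.21-fold (adjusted p = 0.00096). All 3 of its probe sets rose, by 0.93 to 1.18. NBR1, which binds ubiquitin and works alongside p62, rose to 10.06 and 10.02 with CU27, against 9.40 and 9.39 in DMSO (0.64 ± 0.13, adjusted p = 0.00985). Of its 5 tested probe sets 4 rose, and the other had a change of 0.49.

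SQSTM1, which encodes p62, fell to 12.29 and 12.21 with CU27, against 12.73 and 12.57 in DMSO. The groups did not overlap, and the fall of 0.40 ± 0.09 was 1.32-fold (adjusted p = 0.012). Its 5 probe sets all had negative changes, from -0.44 to -0.22, and 3 of them passed the test. CALCOCO2, which encodes NDP52, a receptor for bacteria and mitochondria, had 9.93 and 9.98 with CU27 against 10.28 and 10.62 in DMSO (-0.49 ± 0.14, adjusted p = 0.0365). Its 5 probe sets gave -0.55 to -0.45, and 1 of them passed the test over probe sets.

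TAX1BP1, the paralog of CALCOCO2, had 12.14 and 12.43 with CU27 against 11.93 and 11.92 in DMSO (0.36 ± 0.15, adjusted p = 0.111). With no intensity trend, and without probe sets ending in _x_at or _s_at, SQSTM1 and CALCOCO2 each lost the call. CALCOCO2 also lost it with its probe sets averaged. Over all alternatives the change of SQSTM1 ran from -0.48 to -0.22, and that of CALCOCO2 from -0.66 to -0.32. SQSTM1 lost the call without CU27 replicate 2 (adjusted p = 0.0569) or DMSO replicate 1 (0.0942), and NBR1 without DMSO replicate 2 (0.0716). CALCOCO2 lost it without any 1 array other than DMSO replicate 1 (adjusted p from 0.0654 to 0.265).

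**Figure D2:**
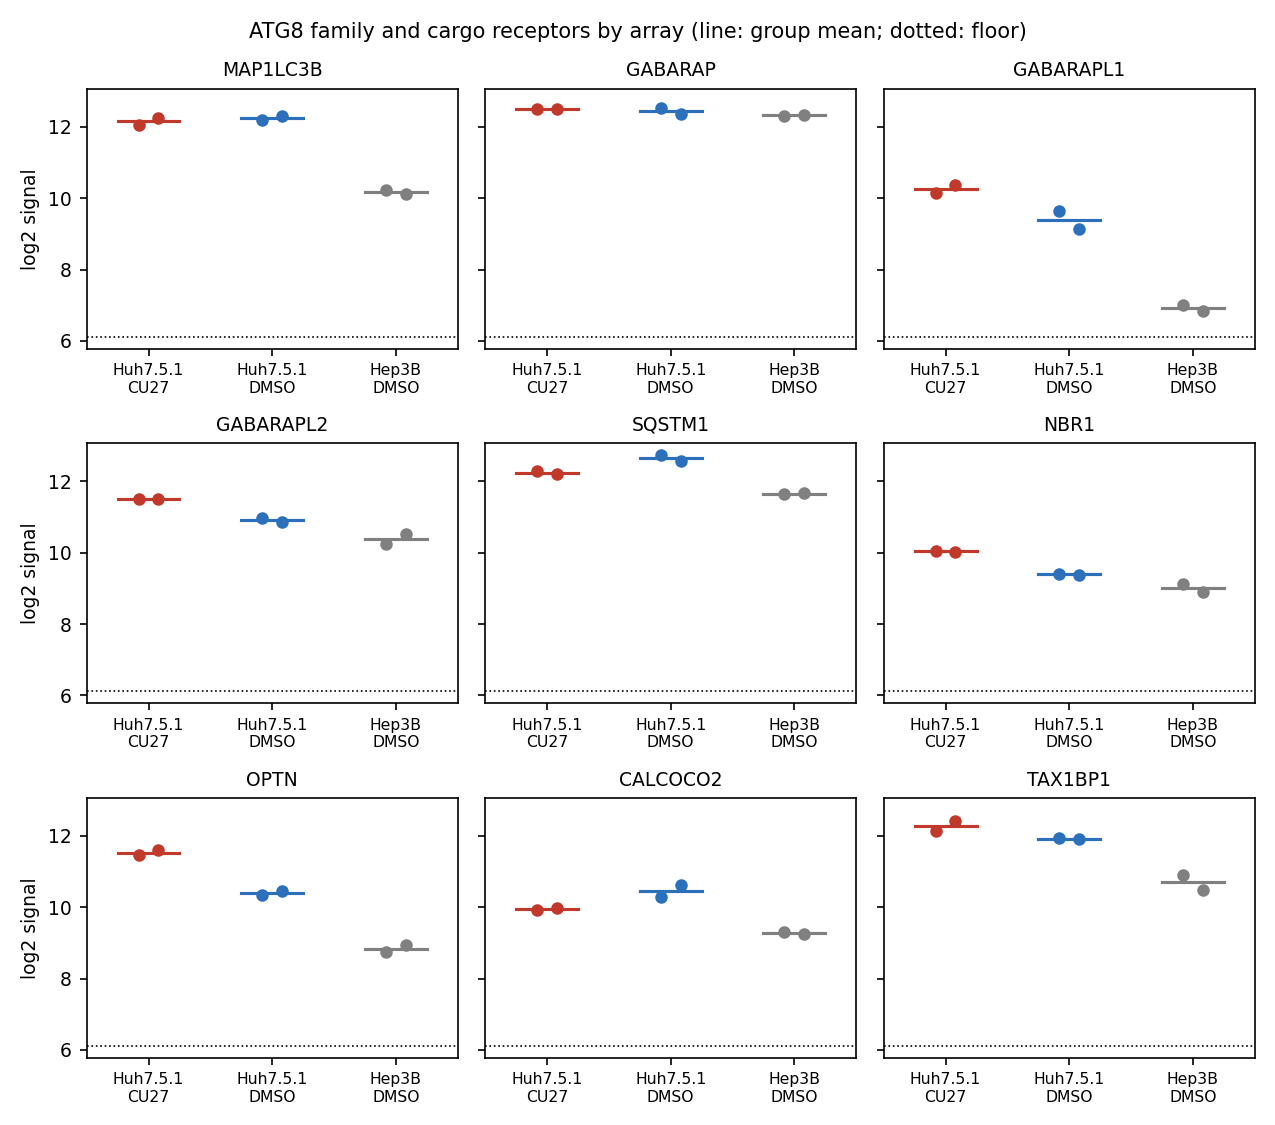
Log2 signal of the 4 ATG8 family genes and 5 cargo receptors on each array, with Huh7.5.1 CU27 in red, Huh7.5.1 DMSO in blue and Hep3B DMSO in grey; points are arrays, bars are group means and the dotted line is the floor at 6.11. OPTN lies highest in CU27 cells at 11.47 and 11.59, and SQSTM1 and CALCOCO2 lie lower in CU27 cells than in Huh7.5.1 DMSO cells. The group mean of every gene shown is lowest in Hep3B cells on this deposited scale.

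Calls were also counted by probe set. The members had 115 probe sets, of which 100 were tested, 24 rose and 7 fell. That is 31.0%, against 21.7% of the 27836 probe sets tested. Of the 15 members called, 14 had another tested probe set. At 13 of these every tested probe set had the same sign, and at ATG2B the other had the opposite sign. ATG4C and ATG10, past the test by gene, had adjusted p of 0.0577 and 0.0544 for the same probe sets when adjusted over all probe sets. The 2 probe sets of ATG2A with equal values on every array count as separate probe sets here.

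**Figure D3:**
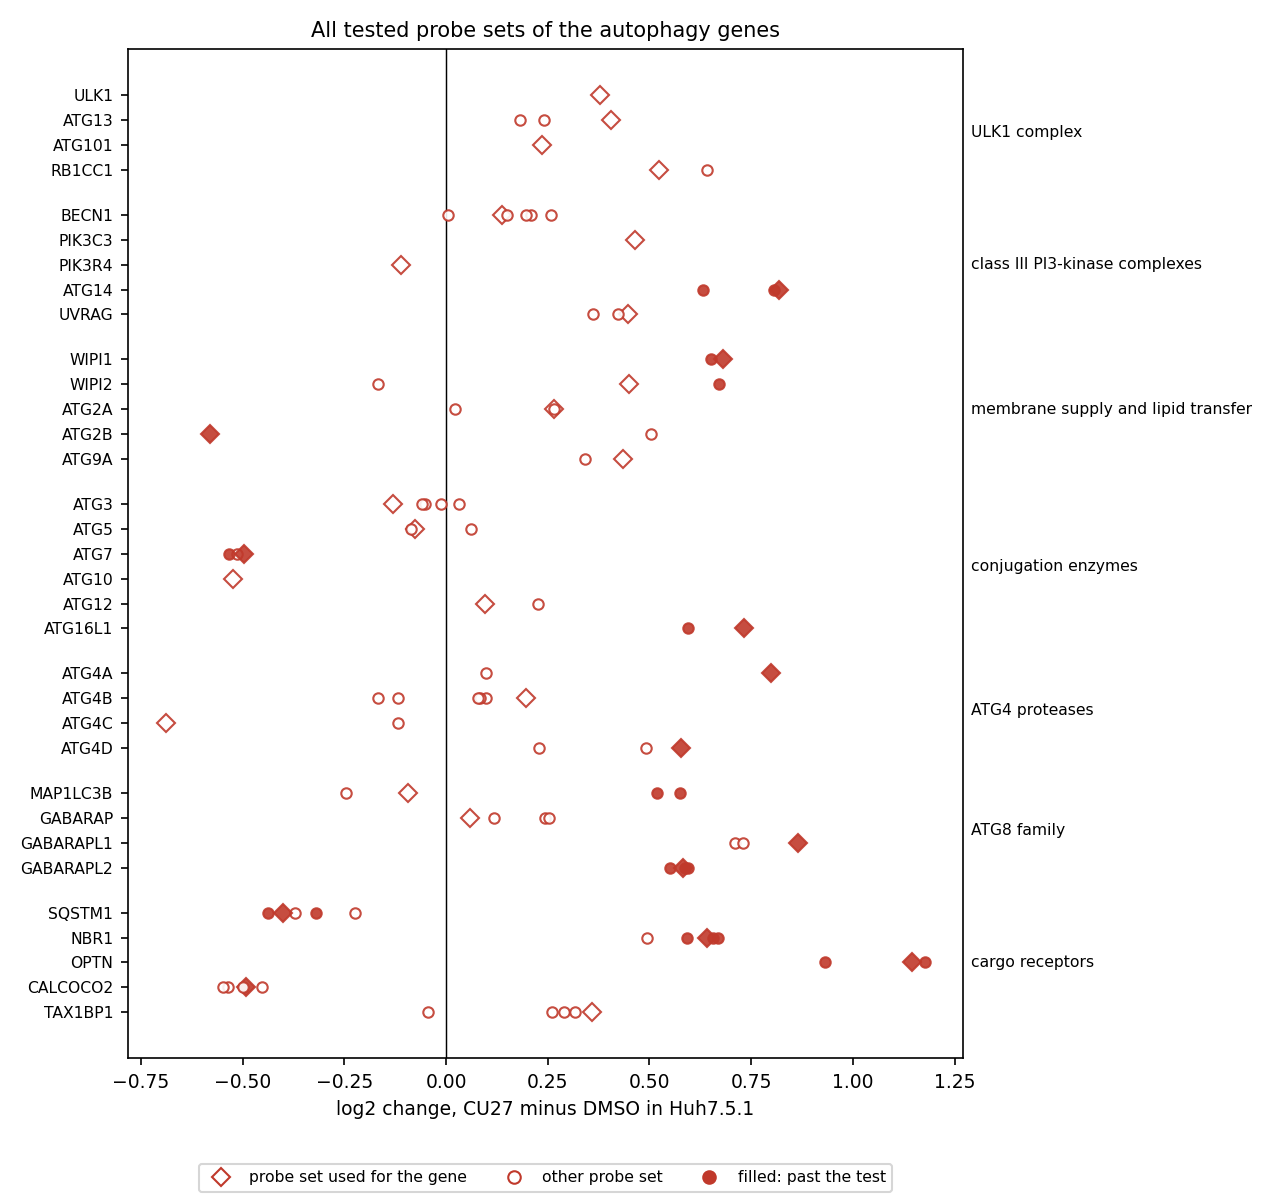
CU27 minus DMSO change, on the log2 scale, of each tested probe set in Huh7.5.1 cells, by member; diamonds are the probe sets that represent the genes, circles the others, and filled symbols passed the test over 27836 probe sets. The probe sets of OPTN, GABARAPL2 and SQSTM1 lie close together, and those of MAP1LC3B, WIPI2 and ATG2B lie on both sides of 0.

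**Figure D4:**
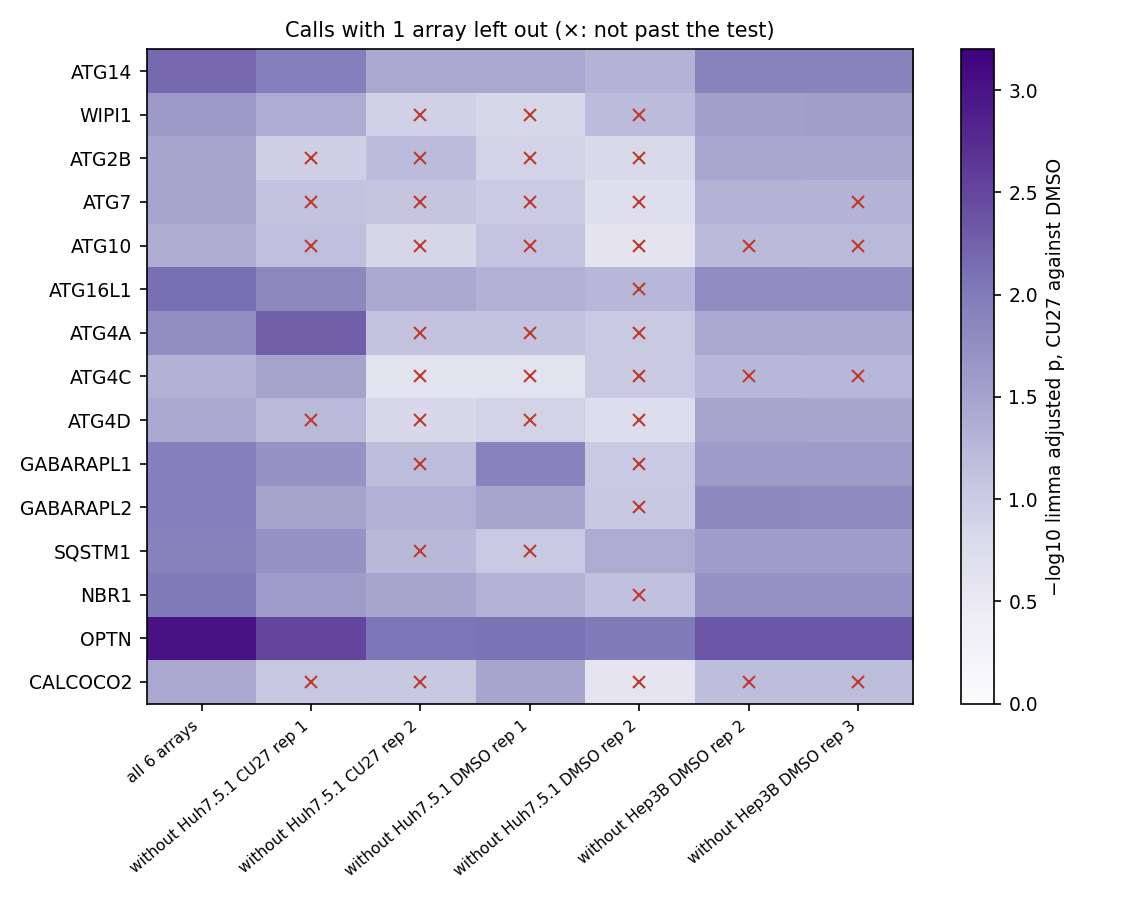
Strength of each call for the 15 members past the test, as −log10 of the adjusted p, with all 6 arrays and without each array in turn; a cross marks an adjusted p of 0.05 or more. ATG14 and OPTN carry no cross, and the most crosses fall in the columns without Huh7.5.1 DMSO replicate 2 and without CU27 replicate 2.

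Of the other autophagy genes, 67 were listed by step, 66 were on the array and 64 were tested. With CU27, 11 rose, 3 fell and 50 did not pass the test, a share of 21.9% against 24.7% of all genes. Their median change was 0.16. Among mitophagy genes, 3 of 8 rose and 1 fell, where 12.6% of all genes rose and 12.1% fell. BNIP3L and BNIP3, mitochondrial receptors that bind ATG8 proteins directly, rose by 1.35 ± 0.17 and 1.27 ± 0.14 (adjusted p = 0.00142 and 0.000842). BNIP3L had 10.70 and 10.74 with CU27 against 9.60 and 9.14 in DMSO, and BNIP3 had 12.23 and 12.23 with CU27 against 11.13 and 10.79 in DMSO. Neither gene's groups overlapped. PINK1, the kinase that marks damaged mitochondria and acts upstream of OPTN and CALCOCO2, rose by 1.11 ± 0.19 (adjusted p = 0.00433). FUNDC1, another mitochondrial receptor, fell by 0.47 on the log2 scale (adjusted p = 0.0378).

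Among the fusion genes 4 of 12 rose, against 12.6% of all genes. Of these 4, those with the smallest adjusted p were VPS11 (0.61, adjusted p = 0.0211), RAB7A (0.53, adjusted p = 0.0233) and VPS16 (0.46, adjusted p = 0.0413). VPS11 and VPS16 are subunits of the complexes that tether autophagosomes to lysosomes, and RAB7A is the small GTPase of late endosomes. EPG5, a tether for the same step, rose by 1.19 ± 0.22 (adjusted p = 0.0061) and was the 1 of 5 other ATG genes past the test. RUBCN, which restrains the UVRAG complex, rose by 0.67 (adjusted p = 0.032), the 1 of 14 other initiation genes and regulators. NCOA4, the receptor for ferritin, rose by 0.38 (adjusted p = 0.026), the 1 of 12 other selective receptors. Upstream of the ULK1 complex, SESN2 and DDIT4, stress-induced inhibitors of mTORC1, fell by 1.18 and 0.91 on the log2 scale (adjusted p = 0.00678 and 0.00247). TSC2, which also restrains mTORC1, rose by 0.64 (adjusted p = 0.0231), and the other 10 of 13 upstream genes did not pass the test.

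In DMSO, Huh7.5.1 cells had higher levels than Hep3B cells of 15 members and lower levels of 6, and 12 did not pass the test. The differences reached 2.26 ± 0.17 for GABARAPL1 and 2.21 ± 0.14 for ATG12 in one direction and -1.84 ± 0.15 for WIPI2 in the other. Of the members, 63.6% were called, against 62.3% of all genes tested, so the share called was close to that of all genes. Those higher in Huh7.5.1 were 45.5% of members against 31.5% of all genes, and those lower 18.2% against 30.8%. The median difference was 0.35 over members and 0.02 over all tested genes. Differences are Huh7.5.1 minus Hep3B after each array was centred on its median over the tested genes, because Huh7.5.1 arrays were higher by a median of 0.22 on the deposited scale. Levels per array are given on the deposited scale.

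On the deposited scale 19 members (57.6%) were higher in Huh7.5.1, against 41% of all genes, and 5 (15.2%) were lower, against 22.9% of all genes, where 64% of all genes were called in either direction. UVRAG, WIPI1, GABARAPL2 and NBR1 were added to the higher ones and PIK3R4 left the lower ones. Over all genes the higher ones made up 50.6% of calls after centring and 64.1% on the deposited scale. ATG16L1 and GABARAP, which did not pass the test on either scale, had differences of -0.08 after centring and 0.12 on the deposited scale. Both Hep3B arrays had a larger ACTB 3′ minus 5′ difference than any Huh7.5.1 array, as given above, and the part of RNA integrity in these differences was not tested.

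In the initiation steps the lines differed in both directions. ATG13, a ULK1 complex subunit that mTORC1 phosphorylates, had 8.61 and 8.44 in Huh7.5.1 against 9.21 and 9.11 in Hep3B (-0.84 ± 0.14, adjusted p = 0.000435). ULK1, ATG101 and RB1CC1 differed by 0.08 to 0.15 and did not pass the test. BECN1 had 11.35 and 11.51 in Huh7.5.1 against 10.58 and 10.49 in Hep3B (0.69 ± 0.11, adjusted p = 0.000356), and all 6 of its probe sets were higher in Huh7.5.1. Of its partners in the complex, ATG14 was also higher, and PIK3C3 and PIK3R4 were lower.

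PIK3C3 had 7.98 and 8.00 in Huh7.5.1 against 8.77 and 8.65 in Hep3B (-0.92 ± 0.15, adjusted p = 0.000358). PIK3R4 had 8.29 and 8.06 in Huh7.5.1 against 8.70 and 8.44 in Hep3B (-0.60 ± 0.15, adjusted p = 0.00614). Each subunit was lower on both Huh7.5.1 arrays than on both Hep3B arrays. PIK3R4 lost the call without Hep3B replicate 2 (adjusted p = 0.0505) or Huh7.5.1 DMSO replicate 2 (0.0625), and on the deposited scale, where it was -0.39. ATG14, by contrast, had 9.09 and 9.11 in Huh7.5.1 against 8.21 and 7.92 in Hep3B (0.83 ± 0.14, adjusted p = 0.000494).

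WIPI2 had the largest difference toward Hep3B, with 8.88 and 9.06 in Huh7.5.1 against 10.62 and 10.58 in Hep3B (adjusted p = 3.25e-06). All 3 of its probe sets were lower in Huh7.5.1. ATG2A had 7.94 and 7.95 in Huh7.5.1 against 8.69 and 8.50 in Hep3B (-0.85 ± 0.14, adjusted p = 0.000401). Its paralog ATG2B had 8.61 and 8.62 in Huh7.5.1 against 7.78 and 7.42 in Hep3B (0.81 ± 0.15, adjusted p = 0.00106). The lines did not overlap at either paralog. The other tested probe set of ATG2B differed by 0.26 and did not pass the test over probe sets, and ATG2B lost the call with all probe sets averaged (0.36, adjusted p = 0.054) and without probe sets ending in _x_at or _s_at (0.33, adjusted p = 0.171). WIPI1 and ATG9A differed by 0.35 and 0.22 and did not pass the test.

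Among the conjugation enzymes ATG12, ATG5, ATG7 and ATG3 were higher in Huh7.5.1 and ATG10 was lower. ATG12 had 10.03 and 9.87 in Huh7.5.1 against 7.53 and 7.54 in Hep3B, 4.63-fold higher after centring (adjusted p = 4.79e-07). Its other probe set, close to the floor in Huh7.5.1 at 6.14 and 6.24, differed by 0.16, and ATG12 lost the call without probe sets ending in _x_at or _s_at (0.23, adjusted p = 0.333). ATG5 had 10.39 and 10.31 in Huh7.5.1 against 9.02 and 8.77 in Hep3B (1.26 ± 0.13, adjusted p = 1.6e-05), and all 3 of its probe sets were higher in Huh7.5.1.

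ATG7 had 7.81 and 7.92 in Huh7.5.1 against an equal 7.17 on both Hep3B arrays (0.49 ± 0.15, adjusted p = 0.0145). The Hep3B arrays held exactly equal values at 1086 of the 49395 probe sets, and the cause was not tested. ATG3 had 10.94 and 10.97 in Huh7.5.1 against 10.13 and 10.46 in Hep3B (0.46 ± 0.15, adjusted p = 0.0195). ATG10 had 6.19 and 6.41 in Huh7.5.1 against 7.10 and 7.08 in Hep3B (-0.99 ± 0.17, adjusted p = 0.000576). The lines did not overlap at any of these 3 genes. ATG7 lost the call without Hep3B replicate 2 (adjusted p = 0.0601) or Huh7.5.1 DMSO replicate 2 (0.0993). ATG3 lost it without Hep3B replicate 2 (0.171) or either Huh7.5.1 DMSO array (0.0627 and 0.0753). Fitted over probe sets, the same probe sets did not pass, at 0.38 for ATG7 (adjusted p = 0.0622) and 0.34 for ATG3 (adjusted p = 0.0771). None of the 5 tested probe sets of ATG3 passed there, and 1 of the 3 of ATG7 did (0.68).

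ATG4C and ATG4D were the proteases with higher levels in Huh7.5.1. ATG4C had 8.05 and 7.73 in Huh7.5.1 against 6.39 and 5.96 in Hep3B (1.51 ± 0.22, adjusted p = 0.000158), and both of its probe sets were higher. ATG4D had 7.38 and 7.33 in Huh7.5.1 against 6.34 and 6.72 in Hep3B (0.62 ± 0.18, adjusted p = 0.0122). Its 3 probe sets ran from -0.26 to 1.22, so 1 pointed the other way without passing the test. It lost the call without Hep3B replicate 2 (adjusted p = 0.089) or Huh7.5.1 DMSO replicate 1 (0.0611). ATG4A and ATG4B differed by -0.37 and -0.28 and did not pass the test. The 6 probe sets of ATG4B ran from -0.40 to 0.50, and the highest passed the test over probe sets (adjusted p = 0.0239).

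GABARAPL1 and MAP1LC3B separated the lines most clearly within the ATG8 family. GABARAPL1 had 9.63 and 9.15 in Huh7.5.1 against 7.01 and 6.85 in Hep3B, 4.78-fold higher after centring (adjusted p = 2.33e-06). MAP1LC3B had 12.18 and 12.32 in Huh7.5.1 against 10.23 and 10.11 in Hep3B (1.88 ± 0.11, adjusted p = 2.85e-07). Unlike its change with CU27, this difference had the same direction in all 4 of its probe sets. GABARAP and GABARAPL2 differed by -0.08 and 0.32 and did not pass the test. In the test over probe sets, 2 of the 4 probe sets of GABARAP were lower in Huh7.5.1, and 2 of the 4 of GABARAPL2 were higher.

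Of the 5 cargo receptors, 4 were higher in Huh7.5.1, against 31.5% of all genes tested. The lines did not overlap at these 4, a measure that was not counted over all genes. OPTN had 10.33 and 10.44 in Huh7.5.1 against 8.73 and 8.94 in Hep3B (1.35 ± 0.14, adjusted p = 1.51e-05). TAX1BP1 had 11.93 and 11.92 in Huh7.5.1 against 10.92 and 10.49 in Hep3B (1.02 ± 0.13, adjusted p = 7.6e-05), and CALCOCO2 had 10.28 and 10.62 against 9.31 and 9.25 in Hep3B (0.97 ± 0.14, adjusted p = 0.0002). All 5 probe sets of TAX1BP1 and all 5 of CALCOCO2 were higher in Huh7.5.1.

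SQSTM1 had 12.73 and 12.57 in Huh7.5.1 against 11.64 and 11.67 in Hep3B (0.79 ± 0.11, adjusted p = 0.000105). Its direction depends on the probe set, since 4 of 5 were higher in Huh7.5.1 and 1 was lower. That one had 8.93 and 8.78 in Huh7.5.1 against 9.05 and 9.04 in Hep3B, and when probe sets ending in _x_at or _s_at were left out the difference of SQSTM1 was -0.44. NBR1 differed by 0.19 and did not pass the test after centring.

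**Figure D5:**
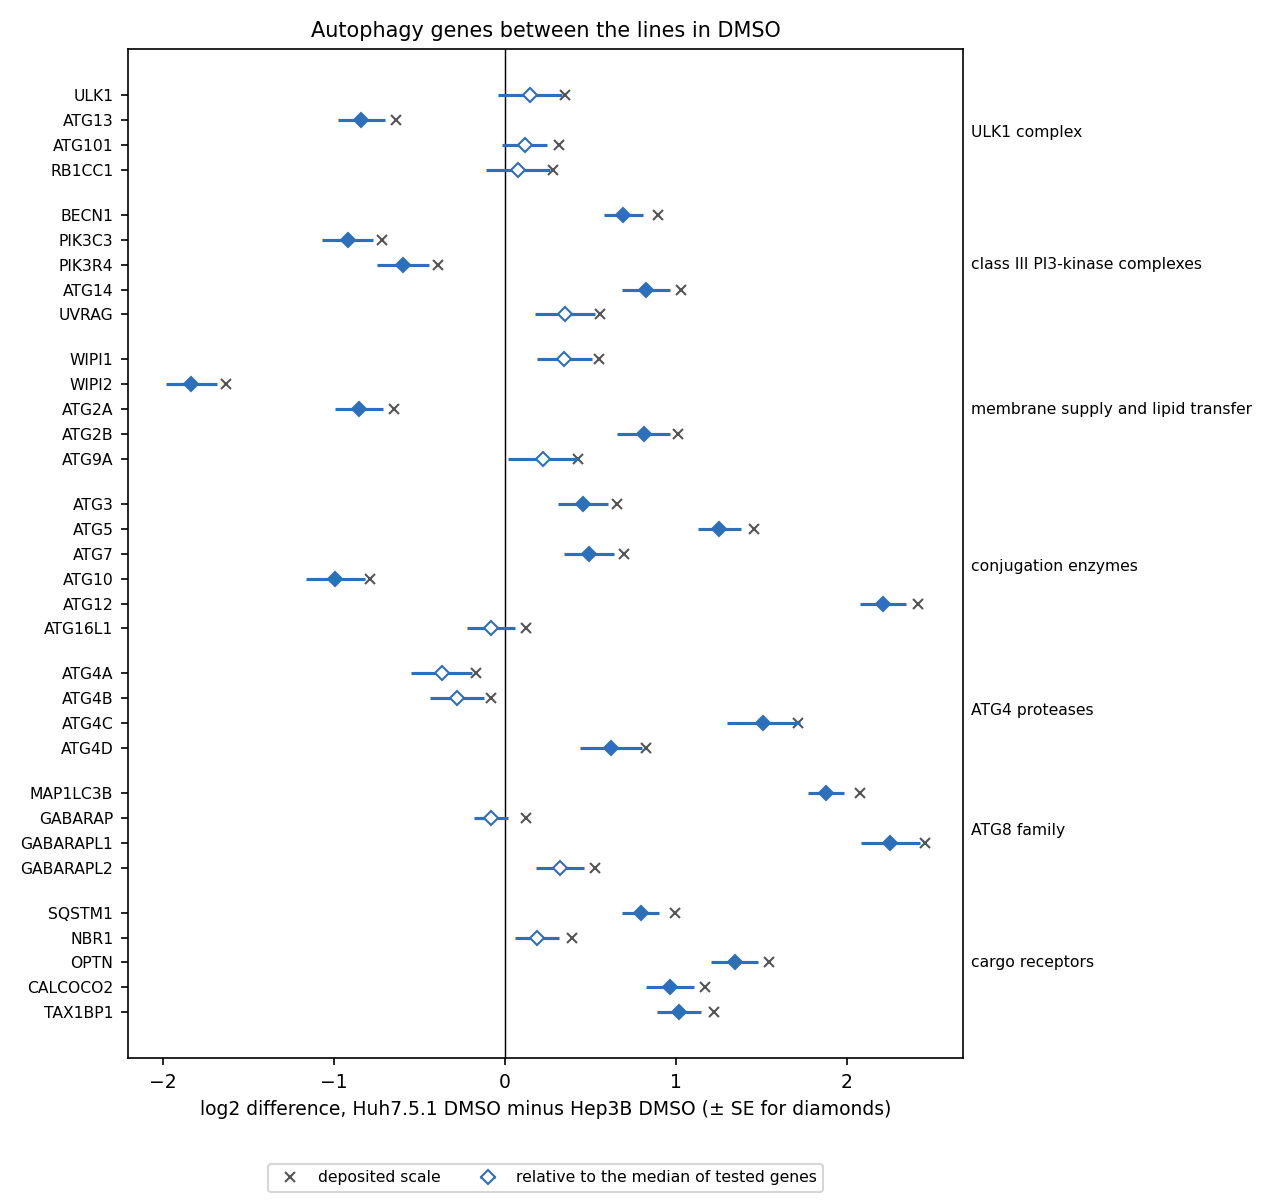
Huh7.5.1 DMSO minus Hep3B DMSO difference of each tested member on the log2 scale, as diamonds ± limma SE after centring each array (filled where the adjusted p was under 0.05) and as crosses on the deposited scale. GABARAPL1 and ATG12 lie farthest toward Huh7.5.1 at 2.26 and 2.21, and WIPI2 farthest toward Hep3B at -1.84.

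The change with CU27 and the difference between lines both use the Huh7.5.1 DMSO arrays, so they are not independent and are given side by side only. OPTN changed by 1.14 with CU27 and differed by 1.35 between lines, and GABARAPL1 by 0.87 and 2.26. SQSTM1 changed by -0.40 with CU27 and differed by 0.79 between lines, and CALCOCO2 by -0.49 and 0.97. ATG12 and ATG5, with differences of 2.21 and 1.26 between lines, had CU27 differences of 0.10 and -0.08 that did not pass the test. ATG16L1, NBR1 and GABARAPL2, which rose with CU27, differed by -0.08, 0.19 and 0.32 between lines. For ATG16L1 the direction between lines depends on the probe set, since its other probe set was higher in Huh7.5.1 (0.46, limma adjusted p over probe sets 0.0459).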

How the data were processed

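Human Huh7.5.1 and Hep3B cells were profiled on 8 Affymetrix arrays, of which 6 were used. Values are the log2 signals in the authors' deposited value table; the log2 scale was read from their range, MAS5 is named without a version in the submitters' processing notes, and the scaling between arrays is not stated there or in the labels. Arrays carry no read depth, so their number limits the precision. Of 49395 probe sets, 102 controls were left out, and the platform annotation gave 44988 a single gene symbol, 1832 several and 2473 none. Per gene, the probe set with the highest mean was used.

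Groups, taken from sample titles, were compared with limma 3.58.1 (R 4.3.3; lmFit, contrasts, eBayes with an intensity trend), two-sided, with residual and prior degrees of freedom of 3 and 5.87 (3 and 7.12 between lines). The smallest exact permutation p for 2 against 2 arrays is 0.333, so none was used. The p-values rest on the spread between replicates pooled over all groups used, moderated toward the trend over all genes tested. Members and lists were chosen with earlier results of these data known. Every member is named; of other autophagy genes, up to 3 per list with the smallest adjusted p among those past the test. The procedure was tested on simulated data. Alternatives varied the probe set, floor, scaling, trend, arrays and replicate block.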

Additional observations from a re-analysis of the deposited data

How the results depend on the processing

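With CU27, 15 members passed the test (9 higher, 6 lower), of 2809 genes. ATG14 and OPTN passed under all alternatives run, 13 others lost the call under at least 1, and 14 members passed under none. Averaging all probe sets of a gene gave 8 members (2 lower), or 25% of members against 24.8% of all genes, and omitting probe sets ending in _x_at or _s_at gave 9 (1 lower), or 29% against 23.1%, with ATG2B reversed at 0.50 (adjusted p = 0.121). These settings fit fewer genes or other probes. Members lower numbered 2 with no filter on low values, 3 with a floor at the 75th percentile, 3 with no intensity trend and 3 with only the 4 arrays compared; the cause was not tested. Without each array in turn, members past the test ranged from 3 to 14, those higher from 2 to 12 and those lower from 0 to 3, and genes past the test from 900 to 2923 (454 to 1610 higher and 446 to 1313 lower). With the replicate number within Huh7.5.1 as a replicate block, 17 members (11 higher, 6 lower) and 3182 genes passed; same-numbered arrays correlated at 0.179 in their deviations, over too few pairs to take the numbers as pairing. Between lines, 15 of 21 called members passed under all alternatives run and 17 without each array in turn. The count of 15 disregards direction and includes SQSTM1, which reversed to -0.44 (adjusted p = 0.0191) without _x_at and _s_at probe sets. With no filter the genes lower in Huh7.5.1 numbered 5269, against 3501.

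The number of arrays, 2 per group, limits the precision, and the scaling of the deposited values is unstated. Hep3B cells gave no reading of CU27.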
